A study of Mus musculus with 7 samples.

Results

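The 6 genes described here are the transforming growth factor beta ligands Tgfb1, Tgfb2 and Tgfb3, the receptor genes Tgfbr1 and Tgfbr2, and Tgfbi, which encodes a secreted extracellular matrix protein and is a widely used target gene of the pathway. They were chosen by symbol and are 6 of the 19415 genes listed over all libraries. Their transcripts were counted in single cells of mouse atypical teratoid rhabdoid tumours (ATRT), which in children are aggressive early brain cancers. They lack Smarcb1, whose protein belongs to the SWI/SNF complex that repositions nucleosomes. All mice carried Rosa26-creERT2::Smarcb1 fl/fl, in which a ubiquitously expressed, tamoxifen-dependent Cre recombinase acts on a floxed Smarcb1, and recombination was induced with 50 mg/kg tamoxifen at 6.5 days post coitum. The labels assign 5 libraries to the MYC subgroup and 2 libraries to the SHH subgroup. The MYC libraries were taken as 4 animals, called M1 to M4 here. M1 was 12 weeks old and had a tumour of the basal cerebrum (MYC replicate 1). M2 was 19 weeks old and gave a trigeminal nerve and a lateral cerebellar tumour (MYC replicates 2 and 3), whose titles share a number and which were therefore summed, although the labels do not state that they come from 1 animal. M3 was 21 weeks old with a trigeminal nerve tumour (MYC replicate 4), and M4 was 27 weeks old with a basal cerebral tumour (MYC replicate 5). The SHH animals S1 and S2 were 14 and 16 weeks old, and each had a tumour of the striatum and subventricular zone, so that site and subgroup cannot be told apart, while the ages of the subgroups overlapped. None of the libraries is of tissue without a tumour.

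Transforming growth factor beta ligands are made as latent precursors that stay bound to their propeptide until integrins, proteases or other activators release them. The active dimer binds the type II receptor (Tgfbr2), which recruits and phosphorylates the type I receptor (Tgfbr1), and the complex phosphorylates SMAD2 and SMAD3. In the brain the pathway is known for maintaining the homeostatic identity of microglia, in T cells for restraining activation and supporting regulatory cells, and in mesenchymal cells for inducing extracellular matrix genes.

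Levels were read in 3 classes of cells, gated on raw counts of unique molecular identifiers (UMIs) of marker genes: tumour cells (6904, without immune, vascular, glial or neuronal markers), T cells (2512, with T cell receptor complex genes) and myeloid cells (7529, with macrophage genes such as Csf1r and Cd68). The class of tumour cells rests on the absence of other markers and not on a genetic test. Of 24433 barcodes, against 24199 cells that the study states, 23219 passed the filters and 5485 were left without a class. The 89 cells that met more than 1 of the 3 gates were kept out of them, and the 5485 can include these cells. Libraries held 2150925 to 111985990 UMIs, and 232 pairs of equal barcodes occurred between libraries, at most 76 between any 2 of them. Genes outside the gates followed the names of the classes. The summed level of 8 further macrophage genes was 44.5 to 536 counts per 1000000 UMIs of the class (CPM) in tumour cells, 282 to 1260 CPM in T cells and 10893 to 49439 CPM in myeloid cells. The summed level of 8 further T cell genes was 5.82 to 86.8 CPM in tumour cells, 1137 to 4842 CPM in T cells and 17.6 to 168 CPM in myeloid cells. Smarcb1 itself was at 0 to 9.03 CPM in tumour cells, 18.8 to 57.3 CPM in T cells and 22.7 to 47.3 CPM in myeloid cells. The sources used here do not give the deleted exon, and a 3' tag may lie outside it.

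Promoter sequences are shown for the members that have one in the table used, so that the letters of their regulatory regions stand beside the levels. RefSeq (GRCm38.p6) held a start for 5 of the 6 members; Tgfb3 had none. Each sequence holds up to 250 bases upstream of both the RefSeq and the GENCODE start, on the strand of the gene. Capitals mark matches on either strand to TATAAA (the TATA box), GGGCGG (GC box), CAGAC (SMAD box), GAGGAA (PU.1 core) and TGACG (core of a cyclic AMP response element); TGANTCA (AP-1 site) was searched as well and had 0 matches in the 5 windows. No 2 matches shared a base.
Tgfb1, chr7:25686752-25687001, plus strand: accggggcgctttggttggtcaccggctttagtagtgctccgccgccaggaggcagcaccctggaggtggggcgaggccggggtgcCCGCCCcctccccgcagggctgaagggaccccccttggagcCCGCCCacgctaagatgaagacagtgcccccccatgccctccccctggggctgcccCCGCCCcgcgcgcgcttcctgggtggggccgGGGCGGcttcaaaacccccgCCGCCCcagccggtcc
Tgfb2, chr1:186705990-186706239, minus strand: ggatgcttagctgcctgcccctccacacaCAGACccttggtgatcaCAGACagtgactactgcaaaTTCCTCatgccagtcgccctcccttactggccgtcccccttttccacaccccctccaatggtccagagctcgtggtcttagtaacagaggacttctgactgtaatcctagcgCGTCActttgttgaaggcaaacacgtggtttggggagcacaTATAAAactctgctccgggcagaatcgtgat
Tgfbr1, chr4:47352972-47353221, plus strand: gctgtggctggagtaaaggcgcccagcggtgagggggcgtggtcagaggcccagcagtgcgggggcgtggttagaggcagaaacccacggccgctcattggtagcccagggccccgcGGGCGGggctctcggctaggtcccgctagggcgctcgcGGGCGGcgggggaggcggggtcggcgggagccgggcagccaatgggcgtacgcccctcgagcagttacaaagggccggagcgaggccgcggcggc
Tgfbr2, chr9:116175364-116175613, minus strand: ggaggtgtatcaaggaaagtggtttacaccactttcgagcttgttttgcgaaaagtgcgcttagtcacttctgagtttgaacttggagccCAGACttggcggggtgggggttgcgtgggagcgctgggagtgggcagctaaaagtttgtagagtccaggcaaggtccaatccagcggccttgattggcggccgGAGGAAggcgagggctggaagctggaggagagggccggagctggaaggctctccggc
Tgfbi, chr13:56609336-56609522, plus strand: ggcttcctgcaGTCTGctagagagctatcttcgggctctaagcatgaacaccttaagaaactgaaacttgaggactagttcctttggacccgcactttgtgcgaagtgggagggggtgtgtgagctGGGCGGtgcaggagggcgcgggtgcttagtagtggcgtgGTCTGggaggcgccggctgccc
The Tgfb1 window was 75.2% G and C and held 5 GC boxes, a motif found in 32.7% of the 32851 promoters of the table. The Tgfb2 window was 53.6% G and C and held a TATA box (12.4% of promoters) and 2 SMAD boxes (42.2% of promoters), but 0 GC boxes. It also held 1 PU.1 core (23.3% of promoters) and 1 TGACG (17.8% of promoters), both on the opposite strand. The Tgfbr2 window (58.4% G and C) held 1 SMAD box and 1 PU.1 core, and the Tgfbi window, 187 bases long and 59.4% G and C, held 1 GC box and 2 SMAD boxes. The Tgfbr1 window was 74.8% G and C and held 2 GC boxes and 0 matches to the other motifs. AP-1 sites occurred in 6.75% of all promoters. These matches describe letters and are no measure of binding.

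The members fell into different classes of cells. Tgfb3 was higher in tumour cells than in T cells or myeloid cells, Tgfb1 was lower in tumour cells than in either immune class, and Tgfbr1 and Tgfbi were higher in myeloid cells than in the other classes. Sums of UMIs per animal and class were compared within animals by edgeR's quasi-likelihood test, with the animal as a block and Benjamini-Hochberg adjustment over all genes tested at a threshold of 0.05. Between tumour and myeloid cells, 1 member passed as higher and 3 as lower in tumour cells among the 5 tested, where 27.5% of 8584 genes passed in either direction (13.8% higher and 13.7% lower). Between T and myeloid cells, 3 of 4 members tested passed as lower in T cells, where 26.7% of 7309 genes passed in either direction (11.8% higher and 14.9% lower). Between tumour and T cells, 1 of 4 tested passed as higher and 1 as lower in tumour cells, where 24.2% of 7932 genes passed (12% higher and 12.2% lower). The median log2 fold change of the members was -3.33 for tumour over myeloid cells, against 0.118 for all genes tested, -2.02 for T over myeloid cells, against 0.0319, and -0.703 for tumour over T cells, against 0.045.

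**Figure D1:**
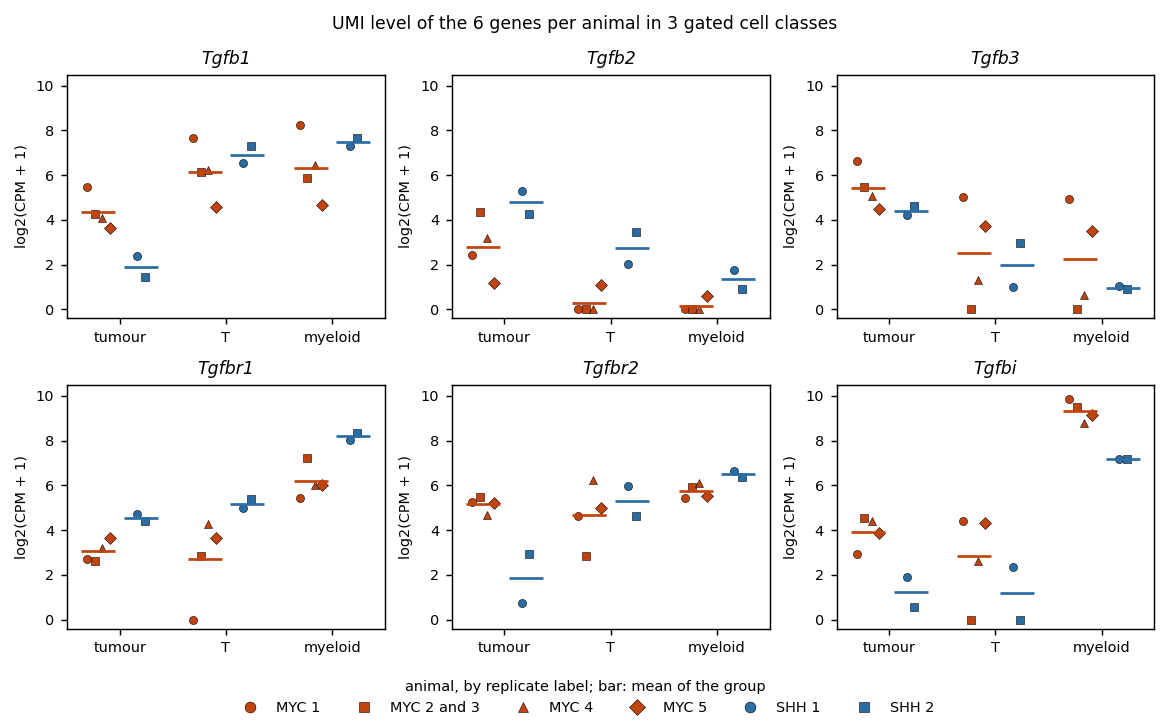
Levels of the 6 genes as log2(CPM + 1), with CPM as counts per 1000000 UMIs of the class, in tumour, T and myeloid cells. Each point is 1 animal, named by its replicate label, MYC animals (orange) stand left of SHH animals (blue), and bars mark group means; Tgfbi in myeloid cells lay at 437 to 924 CPM in MYC animals and at 144 and 145 CPM in SHH animals.

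Between the subgroups, the members with the lowest adjusted p by edgeR in tumour cells were Tgfb1, Tgfbr2 and Tgfbi, all higher in MYC animals. In myeloid cells they were Tgfbi (higher in MYC) and Tgfbr1 (lower in MYC). Tgfb3 had the largest fold change of the members tested in myeloid cells, but a higher adjusted p. Few of these differences passed with 4 against 2 animals, and p-values measure only the spread among these animals. In tumour cells 1 of 6 members passed, Tgfbr2 as higher, where 5.95% of 10437 genes passed (3.14% higher and 2.81% lower); 4 members had an unadjusted p under 0.05 (24.5% of all genes) and 3 passed by DESeq2 (15.5% of all genes). In myeloid cells 0 of 5 members tested passed by edgeR, where 0.0322% of 9323 genes passed (0% higher and 0.0322% lower); 3 had an unadjusted p under 0.05 (13.3% of all genes) and 2 passed by DESeq2 (5.42% of all genes). In T cells 0 of 4 members tested passed by edgeR, where 0.0577% of 6937 genes passed (0% higher and 0.0577% lower), with 0 at an unadjusted p under 0.05 (3.72% of all genes) and 0 by DESeq2 (0.476% of all genes). The CPM of the animals did not overlap between subgroups for 4 of 6 members in tumour cells (3 higher and 1 lower in MYC), where 40.5% of all genes did not overlap (12% higher and 28.4% lower in MYC). The median log2 fold change of the members, MYC over SHH, was 2.40 in tumour cells, against 0.0356 for all genes tested, -0.838 in myeloid cells, against 0.0957, and -0.25 in T cells, against 0.05.

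**Figure D2:**
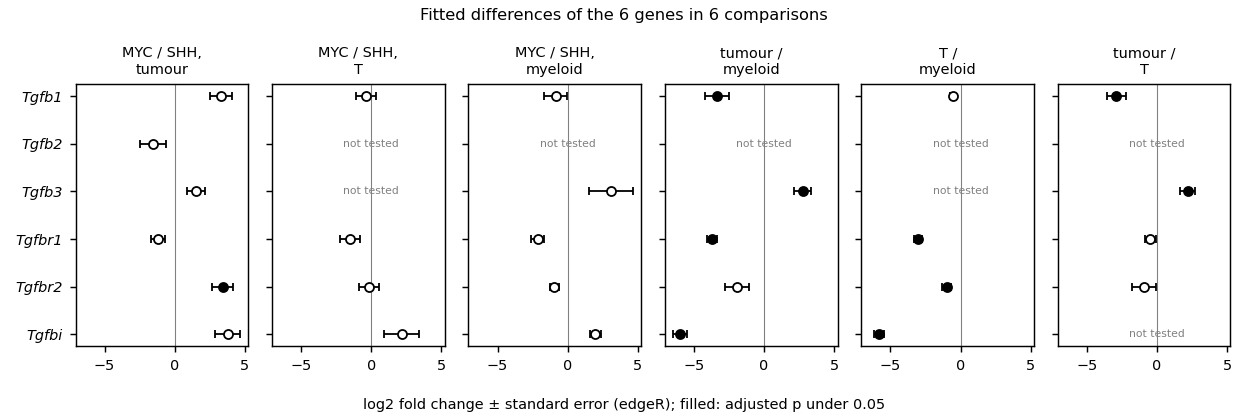
Log2 fold changes of the 6 genes by edgeR, with bars of 1 standard error, for MYC over SHH within each class and for the class comparisons with the animal as a block. Filled points passed at an adjusted p under 0.05; Tgfbi had -6.00 for tumour over myeloid cells and -5.84 for T over myeloid cells.

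Tgfb1 (chromosome 7, 25687002 to 25705077, plus strand, GRCm38) encodes the ligand isoform mostly made by blood and immune cells. In tumour cells it was at 43.0, 18.3, 16.1 and 11.5 CPM in M1 to M4, against 4.17 and 1.70 CPM in S1 and S2. All 4 MYC animals lay above both SHH animals, whose values rest on 6 and 7 UMIs. The log2 fold change, MYC over SHH, was 3.30 ± 0.78 (SE) and missed the threshold by edgeR (adjusted p = 0.0564), but passed by DESeq2 (adjusted p = 0.00170). In the animals whose library was sequenced in a second run, tumour cells held 11.5 CPM in M4, against 4.17 CPM in S1, and in those sequenced once 16.1 to 43.0 CPM in M1 to M3, against 1.70 CPM in S2.

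In T cells Tgfb1 was at 204, 68.9, 74.7 and 22.6 CPM in M1 to M4, against 92.7 and 155 CPM in S1 and S2. In myeloid cells it was at 303, 57.7, 86.9 and 24.4 CPM in M1 to M4, against 159 and 199 CPM in S1 and S2. The subgroups overlapped in both classes because M1 was the highest of all animals, while M2 to M4 lay below both SHH animals. The fold changes did not pass in T cells (-0.38 ± 0.69 SE, edgeR adjusted p = 0.9998) or in myeloid cells (-0.84 ± 0.83 SE, edgeR adjusted p = 0.757). Over the 6 animals Tgfb1 averaged 15.8 ± 14.8 CPM in tumour cells, 103 ± 65.4 CPM in T cells and 138 ± 103 CPM in myeloid cells (SD). It was lower in tumour than in myeloid cells in 6 of 6 animals (edgeR log2 fold change -3.33 ± 0.85 SE, adjusted p = 0.0233) and lower in tumour than in T cells in 6 of 6 animals (-2.89 ± 0.71 SE, adjusted p = 0.0220). Both calls were lost without M1 (adjusted p = 0.0520 over myeloid and 0.0542 over T cells), M3 (0.0515 and 0.0535) or S1 (0.0673 and 0.0702). T and myeloid cells were the neighbours in this order that did not differ past the threshold (-0.56 ± 0.19 SE, edgeR adjusted p = 0.0533, lower in T cells in 5 of 6 animals), although they did in 8 of 15 alternatives, among them immune cells without tumour transcripts (-0.85, adjusted p = 0.0119).

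The gap between tumour and immune cells in Tgfb1 itself differed between the subgroups. Tumour cells held 14.2%, 31.8%, 18.6% and 46.9% of the level of the myeloid cells of the same animal in M1 to M4, against 2.62% and 0.85% in S1 and S2. All MYC animals exceeded both SHH animals. The difference of the class fold between MYC and SHH, fitted as an interaction term, was 4.57 ± 0.70 on the log2 scale (SE; edgeR adjusted p = 0.0177). It no longer passed without S1 (adjusted p = 0.107) or without S2 (adjusted p = 0.250), each of which leaves a single SHH animal. Of 5 members tested for this term, 2 passed, both higher, where 3.7% of 8584 genes passed (3.02% higher and 0.687% lower); the median of the members was 1.84, against -0.107 for all genes.

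Tgfb2 (chromosome 1, 186622792 to 186705989, minus strand) encodes an isoform that neural and mesenchymal cells are known to make. Tumour cells held 4.41, 19.6, 8.07 and 1.27 CPM in M1 to M4, against 38.2 and 18.4 CPM in S1 and S2. M2 lay between the SHH animals, so the subgroups overlapped, and the fold change of -1.53 ± 0.93 (SE) did not pass (edgeR adjusted p = 0.370). Immune cells held few Tgfb2 UMIs. In T cells the counts were 0, 0, 0 and 7 UMIs in M1 to M4, against 3 and 3 UMIs in S1 and S2. In myeloid cells they were 0, 0, 0 and 15 UMIs in M1 to M4, against 14 and 1 UMIs in S1 and S2. Tumour cells exceeded both immune classes in 6 of 6 animals, by 2.91 ± 1.29 over myeloid cells and by 2.36 ± 1.62 over T cells on the log2(CPM + 1) scale (mean and SD, n = 6). The counts do not settle the order over T cells in M1, M4 or S2, and leave it close in M2. In M1 tumour cells held 4 UMIs, and the 0 UMIs of its T cells allow up to 12.0 CPM. In M4 tumour cells held 1.27 CPM, against 1.12 CPM in T cells. In S2 they held 18.4 CPM, against 10.1 CPM in T cells on 3 UMIs. In M2 they held 19.6 CPM, and the 0 UMIs of its T cells allow up to 18.8 CPM. The gene did not reach the minimum count for the test between classes. Without that minimum, tumour over myeloid cells gave a log2 fold change of 3.05 (edgeR adjusted p = 0.00615). Myeloid cells of M4 held 38.8% of the tumour cell level of Tgfb2, on 15 UMIs. Col3a1 and Msln, genes of the MYC tumour cells, were at 40.0% and 38.4% there. The part of tumour RNA in these values was not tested.

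Tgfb3 (chromosome 12, 86056745 to 86079041, minus strand) encodes the isoform known from mesenchyme and palate development. Tumour cells held 98.2, 43.2, 32.3 and 21.4 CPM in M1 to M4, against 17.4 and 23.8 CPM in S1 and S2. M4 lay between the SHH animals and the other MYC animals above them, and the fold change of 1.51 ± 0.66 (SE) did not pass (edgeR adjusted p = 0.217). T cells held 31.9, 0, 1.45 and 12.2 CPM in M1 to M4, against 1.02 and 6.74 CPM in S1 and S2, on 8, 0, 2 and 76 UMIs, against 1 and 2 UMIs. Myeloid cells held 29.5, 0, 0.54 and 10.3 CPM in M1 to M4, against 1.04 and 0.880 CPM in S1 and S2. M1 and M4 were the highest animals in both immune classes. The subgroups overlapped in both, and the fold change in myeloid cells did not pass (3.10 ± 1.58 SE, edgeR adjusted p = 0.460). Tgfb3 was higher in tumour cells than in myeloid cells in 6 of 6 animals (edgeR log2 fold change 2.77 ± 0.61 SE, adjusted p = 0.0137) and higher than in T cells in 6 of 6 animals (2.18 ± 0.52 SE, adjusted p = 0.0200). Both calls were lost without the animal block (adjusted p = 0.0741 over myeloid and 0.0586 over T cells) and without S1 (0.0539 and 0.0568), and that over T cells also without M3 (0.0513). The subgroup term for tumour over myeloid cells did not pass (-1.53 ± 1.31 SE, edgeR adjusted p = 0.554).

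The Tgfb3 counts of immune cells in M1 and M4 went along with other transcripts of the tumour. Myeloid cells of M1 held 30.0% of the tumour cell level of Tgfb3, beside 97.2% of Msln, 83.4% of Krt18, 28.9% of Col1a2 and 14.3% of Col3a1. Myeloid cells of M4 held 48.2% of Tgfb3, beside 38.4%, 35.3%, 33.7% and 40.0% of these genes in the same order. In an alternative chosen after seeing the data, immune cells with any UMI of tumour transcripts of their subgroup were left out. The transcripts were these genes in MYC animals and Fabp7, Sox11 and Msx3 in SHH animals. Tgfb3 was then at 7.12, 0, 0.555 and 5.02 CPM in the myeloid cells of M1 to M4, against 0.804 and 0 CPM in S1 and S2. In T cells it was then at 0, 0, 0 and 2.77 CPM in M1 to M4, against 1.62 and 0 CPM in S1 and S2. The log2 fold changes became 3.51 over myeloid cells (edgeR adjusted p = 0.00181) and 4.17 over T cells (edgeR adjusted p = 0.00187). In MYC animals the cells left out were picked partly on Col3a1, whose level followed that of Tgfb3 over animals and classes (Pearson's r 0.940). The part of tumour RNA in the Tgfb3 counts of immune cells was not tested.

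Tgfbr1 (chromosome 4, 47353222 to 47414931, plus strand) encodes the type I receptor kinase, ALK5. Myeloid cells held 42.0, 147, 64.2 and 64.7 CPM in M1 to M4, against 263 and 323 CPM in S1 and S2. The subgroups did not overlap. Tumour cells held 5.52, 5.24, 8.07 and 11.7 CPM in M1 to M4, against 25.0 and 20.1 CPM in S1 and S2, again without overlap. T cells held 0, 6.26, 18.1 and 11.7 CPM in M1 to M4, against 30.6 and 40.5 CPM in S1 and S2, where the 0 of M1 comes from 45 cells and allows up to 12.0 CPM. Tgfbr1 thus lay lower in all MYC animals than in both SHH animals in each of the 3 classes, but the fold changes did not pass by edgeR. They were -1.18 ± 0.47 (SE, adjusted p = 0.188) in tumour cells, -2.13 ± 0.47 (adjusted p = 0.126) in myeloid cells and -1.50 ± 0.70 (adjusted p = 0.9998) in T cells. By DESeq2 the difference in myeloid cells passed (adjusted p = 0.00294). In T cells 1 member tested, this gene, did not overlap between subgroups, where 12.8% of all genes did not (4.19% higher and 8.59% lower in MYC).

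Between classes Tgfbr1 averaged 12.6 ± 8.20 CPM in tumour cells, 17.9 ± 15.3 CPM in T cells and 151 ± 118 CPM in myeloid cells (SD, n = 6 animals). It was lower in tumour than in myeloid cells in 6 of 6 animals (edgeR log2 fold change -3.70 ± 0.36 SE, adjusted p = 0.000278) and lower in T than in myeloid cells in 6 of 6 animals (-3.04 ± 0.32 SE, adjusted p = 0.000106). Tumour and T cells were neighbours that did not differ past the threshold (-0.48 ± 0.37 SE, adjusted p = 0.386). The myeloid difference between subgroups was also seen per cell. After each cell was thinned to 1000 UMIs, 7.74% of 5378 myeloid cells of MYC libraries held a Tgfbr1 UMI, against 24.5% of 2151 myeloid cells of SHH libraries. The single MYC libraries ranged from 5.56% to 7.92%, against 24.0% and 27.4% in the SHH libraries, and the unthinned shares were 30.0%, against 52.6%. Unthinned, the MYC libraries spread from 15.1% to 57.6%, against 52.0% and 55.9%, so that the highest MYC library lay above both SHH libraries. Tumour cells, where the level was lowest, gave thinned shares of 1.10% in MYC libraries, against 2.61% in SHH libraries.

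Tgfbr2 (chromosome 9, 116084293 to 116175360, minus strand) encodes the type II receptor, which binds the ligand first. Tumour cells held 37.5, 43.9, 24.2 and 36.5 CPM in M1 to M4, against 0.695 and 6.55 CPM in S1 and S2. The lowest MYC animal lay above the highest SHH animal, and S1 held a single UMI in 487 cells. Tgfbr2 was higher in MYC than in SHH tumour cells (log2 fold change 3.42 ± 0.76 SE, edgeR adjusted p = 0.0489), the only one of the 6 genes to pass by edgeR in that comparison. The call sits close to the threshold: it was lost when any 1 animal was left out (adjusted p = 0.0516 to 0.186), with each library as its own unit (adjusted p = 0.0510) and when the number of runs per library entered the model (3.50, adjusted p = 0.0743), and it held by DESeq2 (adjusted p = 0.000106). Tumour cells sequenced in a second run held 36.5 CPM in M4, against 0.695 CPM in S1, and those sequenced once held 24.2 to 43.9 CPM in M1 to M3, against 6.55 CPM in S2.

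T cells held 23.9, 6.26, 73.9 and 30.9 CPM of Tgfbr2 in M1 to M4, against 61.1 and 23.6 CPM in S1 and S2. Myeloid cells held 42.0, 60.1, 68.0 and 44.9 CPM in M1 to M4, against 97.6 and 81.0 CPM in S1 and S2. The subgroups overlapped in T cells, while all MYC animals lay below both SHH animals in myeloid cells. Neither difference passed, with -0.12 ± 0.71 (SE, edgeR adjusted p = 0.9998) in T cells and -0.94 ± 0.35 (edgeR adjusted p = 0.316) in myeloid cells. In myeloid cells 3 of the 5 members tested did not overlap between subgroups (Tgfbi higher, Tgfbr1 and Tgfbr2 lower in MYC), where 23.7% of all genes did not (16.1% higher and 7.66% lower in MYC). The fold between tumour and myeloid cells differed between the subgroups for Tgfbr2: tumour cells held 89.4%, 73.0%, 35.6% and 81.3% of the myeloid level in M1 to M4, against 0.71% and 8.08% in S1 and S2. The interaction term was 4.35 ± 0.77 on the log2 scale (SE, edgeR adjusted p = 0.0259), and it no longer passed without M1 (adjusted p = 0.0586), M4 (0.0693), S1 (0.137) or S2 (0.178). Across all animals Tgfbr2 was lower in T than in myeloid cells (-0.9996 ± 0.31 SE, edgeR adjusted p = 0.0392, lower in 5 of 6 animals), a call that held in 7 of 15 alternatives and was lost without M1 (adjusted p = 0.0695), M2 (0.0605), S1 (0.107) or S2 (0.105), with each library as its own unit (0.0578) and without the animal block (0.162). Tumour cells did not differ past the threshold from myeloid cells (-1.91 ± 0.86 SE, edgeR adjusted p = 0.130) or from T cells (-0.93 ± 0.84 SE, edgeR adjusted p = 0.466).

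**Figure D3:**
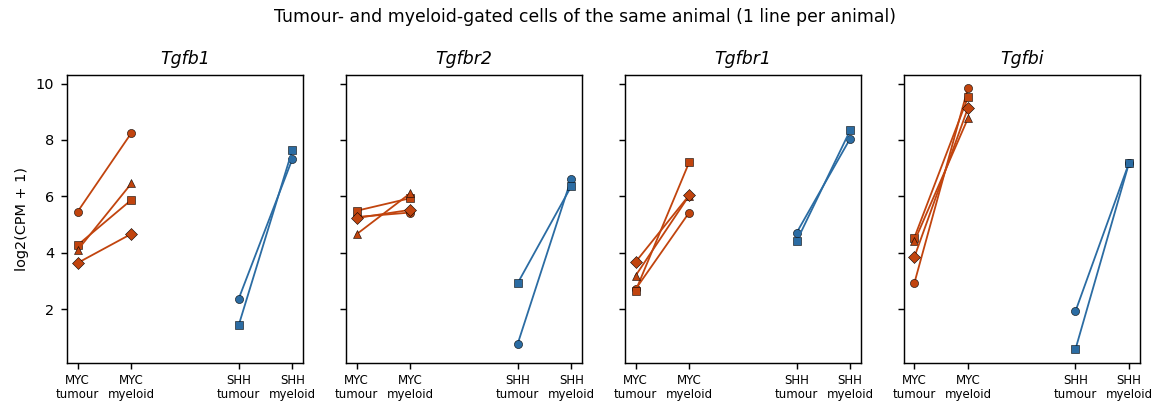
Levels of Tgfb1, Tgfbr2, Tgfbr1 and Tgfbi in log2(CPM + 1) in tumour and myeloid cells, 1 line per animal, MYC animals (orange) left of SHH animals (blue). For Tgfb1 and Tgfbr2 the SHH lines start in tumour cells at 4.17 CPM or less and 6.55 CPM or less, below every MYC animal, and are steeper than the MYC lines.

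Tgfbi (chromosome 13, 56609523 to 56639562, plus strand) encodes a secreted matrix protein that binds collagens and integrins. Myeloid cells held 924, 736, 437 and 565 CPM in M1 to M4, against 145 and 144 CPM in S1 and S2. The lowest MYC animal was above both SHH animals, which differed little from each other. The log2 fold change was 1.97 ± 0.39 (SE). It missed the threshold by edgeR (adjusted p = 0.0991), where 3 of 9323 genes passed, and passed by DESeq2 (adjusted p = 6.58e-05). Animals sequenced in a second run held 565 CPM in M4, against 145 CPM in S1, and those sequenced once held 437 to 924 CPM in M1 to M3, against 144 CPM in S2. In myeloid cells without tumour transcripts the levels were 1670, 818, 444 and 759 CPM in M1 to M4, against 144 and 122 CPM in S1 and S2.

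Shares of cells gave the same order for Tgfbi. After thinning to 1000 UMIs, 2309 of 5378 myeloid cells of MYC libraries (42.9%) held a Tgfbi UMI, against 249 of 2151 myeloid cells of SHH libraries (11.6%). The MYC libraries ranged from 27.3% to 55.6%, against 11.1% and 14.1% in the SHH libraries. The unthinned shares were 77.8% (41.6% to 83.3% by library), against 24.6% (23.7% and 29.1%). Tumour cells, as a class with little Tgfbi, gave thinned shares of 1.25% in MYC libraries, against 0.195% in SHH libraries. C1qa, a complement gene of macrophages, was found after thinning in 5.83% of tumour cells of MYC libraries, against 5.54% of tumour cells of SHH libraries. By library this ran from 0% to 6.09% in MYC, against 2.58% and 11.9% in SHH.

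**Figure D4:**
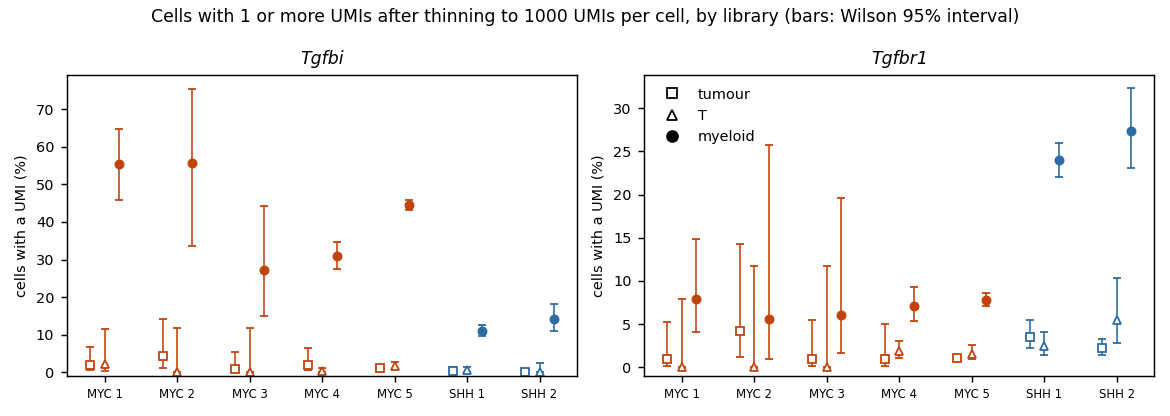
Percent of tumour (squares), T (triangles) and myeloid cells (filled circles) with a UMI of Tgfbi or Tgfbr1 in each library after thinning every cell to 1000 UMIs, MYC libraries (orange) left of SHH libraries (blue), with Wilson 95% intervals that cover counting error only. In myeloid cells all 5 MYC libraries lie above both SHH libraries for Tgfbi (27.3% to 55.6%, against 11.1% and 14.1%) and below them for Tgfbr1 (5.56% to 7.92%, against 24.0% and 27.4%).

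In tumour cells Tgfbi was at 6.62, 22.3, 20.2 and 13.4 CPM in M1 to M4, against 2.78 and 0.485 CPM in S1 and S2. The subgroups did not overlap, and the SHH values rest on 4 and 2 UMIs. The fold change of 3.79 ± 0.89 (SE) missed the threshold by edgeR (adjusted p = 0.0545), passed by DESeq2 (adjusted p = 0.00145) and passed by edgeR without M1 (adjusted p = 0.0473). Of the 34 UMIs in M2, 21 were in 3 of the 47 tumour cells of the trigeminal nerve library. As a share of the myeloid level, tumour cells held 0.716%, 3.03%, 4.62% and 2.38% in M1 to M4, against 1.92% and 0.336% in S1 and S2. The complement genes C1qa, C1qb and C1qc, which tumour cells should lack, were at 1.07% to 1.55% in M1, 0.22% to 0.43% in M2, 0.26% to 0.72% in M3 and 1.53% to 1.74% in M4, against 0.99% to 1.19% in S1 and 0.21% to 0.34% in S2. The share of Tgfbi lay below those of the complement genes in M1, within their range in S2 and above it in M2, M3 and M4. It was above them in S1 as well, but on 4 UMIs (2.78 CPM, exact Poisson 95% interval 0.757 to 7.12 CPM), an interval wide enough to hold the share of the complement genes. The part of free RNA in these values was not tested.

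T cells held 20.0, 0, 5.07 and 19.2 CPM of Tgfbi in M1 to M4, against 4.07 and 0 CPM in S1 and S2, on 5, 0, 7 and 120 UMIs, against 4 and 0 UMIs. These were 0% to 3.40% of the myeloid level, where the complement genes were at 0% to 2.44%. The subgroups overlapped, and the fold change of 2.17 ± 1.22 (SE) did not pass (edgeR adjusted p = 0.9998). Between classes, Tgfbi averaged 11.0 ± 9.10 CPM in tumour cells, 8.06 ± 9.18 CPM in T cells and 492 ± 315 CPM in myeloid cells (SD, n = 6 animals). It was lower in tumour than in myeloid cells in 6 of 6 animals (edgeR log2 fold change -6.00 ± 0.52 SE, adjusted p = 0.000161) and lower in T than in myeloid cells in 6 of 6 animals (-5.84 ± 0.37 SE, adjusted p = 5.47e-06). Tumour and T cells were neighbours in level; tumour cells were higher in 3 animals and lower in 3. The subgroup term for tumour over myeloid cells did not pass for Tgfbi (1.84 ± 0.87 SE, edgeR adjusted p = 0.282) or for Tgfbr1 (0.90 ± 0.62 SE, adjusted p = 0.455).

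Within the myeloid class, cells with 2 or more UMIs over the microglial genes P2ry12, Tmem119, Siglech, Sall1 and Gpr34 were set beside cells with 0, as a description without a test. The MYC animals gave 20, 20, 154 and 2316 cells of the first kind, against 1304 and 256 cells in S1 and S2, and 65, 29, 469 and 1377 cells of the second kind, against 236 and 53 cells. Tgfbr1 was higher in the cells with microglial transcripts in 6 of 6 animals. They held 104, 203, 98.4 and 88.1 CPM in M1 to M4 and 273 and 313 CPM in S1 and S2, against 24.0, 132, 47.6 and 36.0 CPM and 194 and 310 CPM in the cells without them. The MYC animals stayed below the SHH animals among cells with microglial transcripts as well. Tgfbr2 was higher in the cells with microglial transcripts in 5 of 6 animals. These cells held 45.6, 50.7, 126 and 51.8 CPM in M1 to M4, against 105 and 90.7 CPM in S1 and S2. Cells without such transcripts held 44.8, 61.0, 51.4 and 38.9 CPM, against 52.3 and 21.6 CPM, the last on 3 UMIs. The subgroups thus overlapped in Tgfbr2 within both kinds of cells, although they did not over the whole myeloid class.

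Tgfbi showed no common order between these kinds of myeloid cells. Cells with microglial transcripts held 848, 751, 63.1 and 743 CPM in M1 to M4, against 114 and 141 CPM in S1 and S2. Cells without microglial transcripts held 772, 700, 552 and 347 CPM in M1 to M4, against 252 and 122 CPM in S1 and S2. The level was higher in the cells with microglial transcripts in 4 animals and lower in M3 and S1. Among these cells M3 lay below both SHH animals, so that the subgroups overlapped there, while among cells without microglial transcripts they did not. Tgfb1 was higher in the cells with microglial transcripts in 4 animals and lower in M1 and S1.

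**Figure D5:**
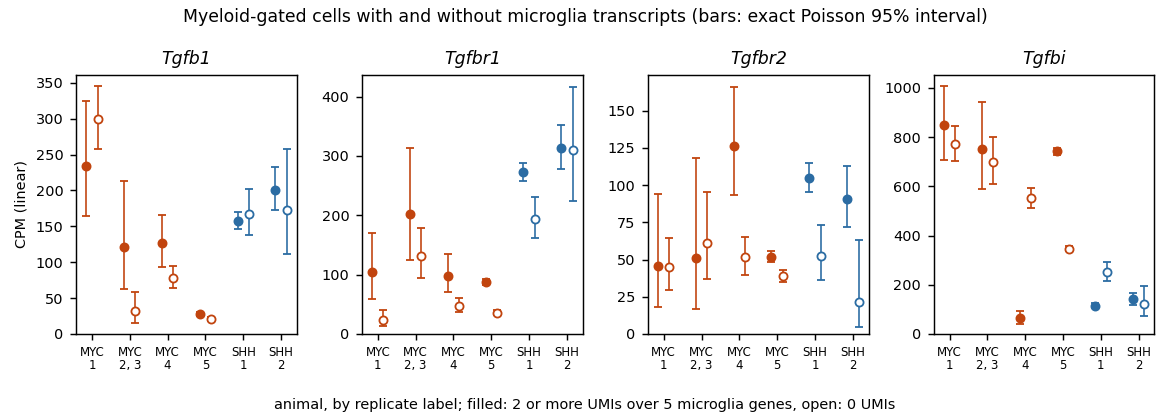
CPM (linear axes) of Tgfb1, Tgfbr1, Tgfbr2 and Tgfbi in myeloid cells with 2 or more UMIs over 5 microglial genes (filled) and with 0 (open), by animal under its replicate label, with exact Poisson 95% intervals. The filled Tgfbr1 point lies above the open one in 6 of 6 animals, and the filled Tgfbi point lies below the open one in M3 (MYC 4) and S1.

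Tumour cells of M4, the library with most of them, were also divided into 1404 cells with collagen transcripts (Col1a1, Col1a2, Col3a1) and no epithelial ones, and 949 cells with epithelial transcripts (Krt8, Krt18, Krt19, Epcam) and no collagen ones. Tgfb3 was at 42.2 CPM (exact Poisson 95% interval 38.0 to 46.6) in the collagen cells, against 5.09 CPM (3.52 to 7.11) in the epithelial cells. Tgfb1 was at 19.8 CPM (17.0 to 22.9), against 4.94 CPM (3.40 to 6.93), and Tgfbr2 was at 48.2 CPM (43.8 to 53.0), against 21.7 CPM (18.3 to 25.5). Tgfbr1 was at 16.2 CPM (13.6 to 19.0), against 9.88 CPM (7.64 to 12.6), and Tgfb2 at 2.21 CPM (1.35 to 3.42), against 0.449 CPM (0.0926 to 1.31), on 20 and 3 UMIs. The intervals of these 5 genes did not overlap, and each was higher in the collagen cells. Tgfbi was at 14.8 CPM (12.4 to 17.6), against 10.8 CPM (8.43 to 13.6), and its intervals overlapped. These are cells of 1 animal, and the intervals cover counting error only.

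Smaller gates were pooled over the animals of a subgroup and are described only. Endothelial cells of MYC animals (156 cells) held 71.4 CPM of Tgfbr2, 34.6 CPM of Tgfbi and 33.5 CPM of Tgfb3. Of these cells 127 were from M4. Without it, 29 cells held 48.3 CPM of Tgfbr2, 46.4 CPM of Tgfbi and 52.2 CPM of Tgfb3, so the order of these genes depended on M4. Mural cells of MYC animals (67 cells) held 18.1 CPM of Tgfb2, on 11 UMIs that all came from the 63 cells of M4. The neutrophil gate used Retnlg, Cxcr2, Camp, Ngp, Ltf, Ly6g, Mpo and Elane together and did not separate stages of maturation. Its cells in MYC animals (355 cells, mostly from the trigeminal nerve tumour of M2) held 57.0 CPM of Tgfb1 and 69.6 CPM of Tgfbi. Without M2 (68 cells) these were 42.0 and 85.6 CPM. B cells held 178 CPM of Tgfbi in MYC animals (98 cells), against 10.6 CPM in SHH animals (75 cells, 2 UMIs), but the MYC value was uneven, with 159 CPM in M4, 0 UMIs in the 39 cells of M3 and 29 UMIs in the 2 cells of M2. T cells with Cd8a or Cd8b1 held 195, 73.4, 58.0 and 23.9 CPM of Tgfb1 in M1 to M4, against 66.4 and 144 CPM in S1 and S2, so the subgroups overlapped. Pooled over animals this was 41.6 CPM in MYC (515 cells), or 76.8 CPM without M4, against 87.1 CPM in SHH (337 cells).

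Other genes of the pathway were followed in 7 lists. Over all genes tested for MYC over SHH in tumour cells 5.95% passed by edgeR, 24.5% had an unadjusted p under 0.05 and 15.5% passed by DESeq2. In these cells 4 of the 16 mesenchymal target genes tested were higher in MYC than in SHH and 0 were lower, with a median log2 fold change of 4.46, or 4.22 with genes at 0 in SHH held at their bound, against 0.0356 over all genes. Among them were Lox, a collagen crosslinking enzyme (40.3 ± 4.14 CPM in MYC, against 0.695 ± 0.983 CPM in SHH; SD, n = 4 and 2; log2 fold change 6.77, edgeR adjusted p = 0.0171), Pmepa1, an inhibitor of SMAD signalling (68.1 ± 25.1 CPM, against 10.1 ± 7.38 CPM; 3.10, adjusted p = 0.0362), and the collagen gene Col1a1 (6.37, adjusted p = 0.0469). Of 15 SMAD and SMAD regulator genes 1 was higher and 0 were lower, a share of 6.67% that is near that of all genes. The gene was Smad7, the inhibitory SMAD (17.2 ± 5.93 CPM in MYC, against 4.01 ± 1.21 CPM in SHH; log2 fold change 2.43, edgeR adjusted p = 0.0456), which is also listed among the T cell genes. Of 12 latency and activation genes, Furin, a protease that cleaves the ligand precursor, was higher (2.24, edgeR adjusted p = 0.0244) and Itgb8, a subunit of an activating integrin, was lower (6.97 ± 4.68 CPM in MYC, against 79.9 ± 25.6 CPM in SHH; -3.31, adjusted p = 0.0278). Of 7 co-receptors and extracellular inhibitors 1 was higher, Fstl3, an activin-binding protein that was at 0 UMIs in SHH tumour cells and at least 16.1-fold higher in MYC, against 3 counts over the SHH group (edgeR adjusted p = 0.0251). Of 8 sister ligands and receptors (activin and bone morphogenetic protein genes) 0 passed by edgeR, with 2 at an unadjusted p under 0.05 and 1 by DESeq2. Of 3 microglia genes tested in tumour cells 0 passed by edgeR, with 0 at an unadjusted p under 0.05 and 0 by DESeq2.

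In myeloid cells none of the 7 lists had a gene past the threshold between the subgroups by edgeR. The microglia genes that depend on the pathway had the lowest median: all 10 tested were fitted lower in MYC, with a median log2 fold change of -2.62, against 0.0957 over all genes; 8 had an unadjusted p under 0.05, where 13.3% of all genes did, and 7 passed by DESeq2, where 5.42% of all genes did. Tmem119, a microglial surface protein, was at 137 ± 126 CPM in MYC, against 515 ± 8.60 CPM in SHH, and was named after its values were seen. Cells with microglial transcripts made up 20 of 101, 20 of 51, 154 of 675 and 2316 of 4551 myeloid cells in M1 to M4. In S1 and S2 they made up 1304 of 1797 and 256 of 354 myeloid cells. Their share was thus lower in all MYC animals than in both SHH animals. That split uses P2ry12, Tmem119 and Siglech, which are also genes of this list, so the split and the list are not independent. The part of such cells in the list was not tested. The other lists had medians of 0.609 (11 latency genes, 5 at an unadjusted p under 0.05 and 5 by DESeq2), 0.231 (5 co-receptors, 2 and 1), -0.645 (13 SMAD genes, 2 and 1), 1.98 (10 mesenchymal target genes, 6 and 3), 0.653 (3 T cell genes, 0 and 0) and 2.64 (6 sister genes, 4 and 1). In T cells 0 genes of the 6 lists with a gene tested passed by edgeR, with 1 gene in all at an unadjusted p under 0.05 and 0 by DESeq2.

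Between classes, list genes passed in both directions, where 13.8% of all genes passed as higher and 13.7% as lower for tumour over myeloid cells. Nrros, which anchors latent ligand on myeloid cells, was lower in tumour than in myeloid cells (1.26 ± 0.835 CPM, against 86.3 ± 18.7 CPM; SD, n = 6; log2 fold change -6.19, edgeR adjusted p = 0.000105) and lower in T than in myeloid cells (-2.56, adjusted p = 6.37e-05). Ltbp3, a latent ligand binding protein of the matrix, was higher in tumour than in myeloid cells (31.5 ± 16.9 CPM, against 4.98 ± 5.04 CPM; 2.31, adjusted p = 0.00910). Of 10 latency genes tested for tumour over myeloid cells, 2 passed as higher and 3 as lower, and of 9 mesenchymal target genes 4 were higher and 0 lower (Col1a1 5.11, Cyr61 3.92, Col3a1 3.67 and Cdkn2b 2.49 on the log2 scale). Of 8 microglia genes 6 were lower in tumour cells, with Cx3cr1, Fcrls, Siglech and P2ry12 at -7.72, -7.59, -7.10 and -6.83. Of 4 co-receptors 2 were higher, Dcn and Fstl1, and 1 was lower, Acvrl1, while of 12 SMAD genes Skil was lower (-1.48) and of 4 sister genes Bmpr1a, a receptor for bone morphogenetic proteins, was higher (2.30). The 1 T cell gene tested, Smad7, did not pass by edgeR at 12.8 ± 8.23 CPM in tumour cells, against 40.1 ± 20.0 CPM in myeloid cells, although its unadjusted p was under 0.05 (41.8% of all genes) and DESeq2 called it (35.2% of all genes).

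For T over myeloid cells 11.8% of all genes passed as higher and 14.9% as lower. Here 7 of 7 microglia genes tested were lower and 2 of 4 T cell genes were higher, Gzmb, the granzyme of cytotoxic cells (5.39 on the log2 scale), and Ikzf2, a transcription factor of regulatory T cells (4.81). Of 6 latency genes 3 were lower (Nrros, Mmp14 and Itgb5), of 4 mesenchymal target genes 2 were lower (among them Fn1), and of 11 SMAD genes 2 were lower (Skil and Tgif1). The 2 co-receptors and the 1 sister gene tested gave 0 calls by edgeR, with 0 and 1 at an unadjusted p under 0.05 (38.6% of all genes) and 0 and 1 by DESeq2 (30.1% of all genes). For tumour over T cells 12% of all genes passed as higher and 12.2% as lower. Smad7 was lower (12.8 ± 8.23 CPM in tumour cells, against 91.9 ± 45.1 CPM in T cells; log2 fold change -2.90, edgeR adjusted p = 0.00919) and Smad1, which carries bone morphogenetic protein signals, was higher (1.24, adjusted p = 0.0348), among 11 SMAD genes. All 4 T cell genes tested were lower in tumour cells, both sister genes tested, Bmpr1a and Bmpr2, were higher, and of 10 latency genes 4 were higher and 2 lower. Of 5 mesenchymal target genes Cyr61 and Col3a1 were higher and Bhlhe40 was lower, Fstl1 was higher among 3 co-receptors, and of 3 microglia genes Olfml3 and Gas6 were higher.

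The subgroup term for tumour over myeloid cells passed for 4 list genes and for 3.7% of all genes, each of the 4 with a larger tumour over myeloid ratio in MYC than in SHH. Pmepa1 was at 68.1 ± 25.1 CPM in tumour cells, against 60.4 ± 35.3 CPM in myeloid cells of MYC animals, and at 10.1 ± 7.38 CPM in tumour cells, against 165 ± 86.6 CPM in myeloid cells of SHH animals (SD, n = 4 and 2; log2 term 4.73, edgeR adjusted p = 0.0387). Smad7 was at 17.2 ± 5.93 CPM in tumour cells, against 30.7 ± 17.5 CPM in myeloid cells of MYC animals, and at 4.01 ± 1.21 CPM, against 58.9 ± 3.88 CPM in SHH animals (3.78, edgeR adjusted p = 0.0276). The integrin subunit gene Itgb5 also passed (5.18, edgeR adjusted p = 0.0203). Pmepa1 and Smad7, like Tgfb1 and Tgfbr2, had a higher MYC than SHH mean in tumour cells and a lower MYC than SHH mean in myeloid cells. The lists gave 1 of 10 latency genes, 1 of 12 SMAD genes, 2 of 9 mesenchymal target genes and, with Smad7 counted again, 1 of 1 T cell genes. Co-receptors (4 tested), microglia genes (8) and sister genes (4) gave 0 calls by edgeR, with 1, 5 and 1 at an unadjusted p under 0.05 (20.5% of all genes) and 1, 3 and 0 by DESeq2 (8.5% of all genes).

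Over the 18 sums of 6 animals and 3 classes, and among 5459 genes with a mean of 20 CPM or more, the genes most like each member were named by Pearson's r of log2(CPM + 1). For Tgfb1 they were Tmed5 (0.902), H2-D1 (0.896) and Tmem173 (0.893), and for Tgfb2 they were Dpysl3 (0.896), Cltb (0.891) and Mageh1 (0.883). Tgfb3 was most like Cnpy4 (0.954), Col3a1 (0.940) and Gpx8 (0.927). Tgfbr1 was most like Slc29a3 (0.912), Apoe (0.906) and Cxcl14 (0.903), and Tgfbr2 was most like Vamp8 (0.869), Rel (0.820) and Ly96 (0.815). For Tgfbi the genes were AI607873 (0.944), Apobec1 (0.941) and Fes (0.932). The sums share animals, libraries and class, so these values describe a pattern over classes and carry no test.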

How the data were processed

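Tissue was dissociated with Accutase, cells that excluded the dye 7-AAD were sorted, and they were captured with 10x 3' chemistry, per the labels. The deposited tables hold raw UMI counts per gene and barcode, made with Cell Ranger 2.0.2 on mm10 per the submitters' processing notes; a gene not listed in a table was set to 0. The libraries of M4 and S1 were sequenced in a second run, per the labels. Barcodes with 1000 or more UMIs, 200 or more genes, at most 20% mitochondrial and under 5% haemoglobin UMIs were kept. The T gate needed 2 or more UMIs of its list and the myeloid gate 3 or more, each with at most 1 of the other list, and the tumour gate at most 2 immune UMIs and none of Ptprc. No doublet caller was run: cells in more than 1 gate were left out, and an alternative left out the 8% of barcodes with most UMIs.

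Sums per animal and class (20 or more cells) held 495472 to 34553902 UMIs in tumour cells, 159655 to 6236692 in T cells and 415997 to 30322867 in myeloid cells, and these set the precision of each level. They were tested with edgeR 4.0.16 (TMM, filterByExpr, quasi-likelihood) in R 4.3.3, with DESeq2 1.42.0 as an alternative; CPM in the text is without TMM factors. Other alternatives were RLE size factors, no filter, stricter and looser gates, libraries as units, runs as a covariate, no animal block, each animal left out, and immune cells without tumour transcripts, the last chosen after seeing the data. Replicate numbers follow accession order and pair nothing; classes are paired because they come from the same animal. On simulated counts with 200 changed genes edgeR recovered 1.49% of 4-fold and 56.1% of 16-fold changes for MYC over SHH in tumour cells, 10.4% and 74.2% in myeloid cells, 10.4% and 78.8% in T cells, and 76.1% of 4-fold changes for tumour over myeloid cells. The members and lists were chosen with earlier results of these data known. Named genes are the 6 members, up to 4 list genes with the smallest p among those that passed per comparison, and the 3 genes most like each member. Some list genes are counted but not reported here by name. Coordinates are those of GENCODE on GRCm38, the assembly that mm10 names. Python 3.11.15 with numpy 2.4.6, pandas 2.3.3, scipy 1.17.1 and matplotlib 3.10.9 was used for gating, tables and figures. Intervals and floors cover counting error only, and PCR-amplified droplets add error that they do not hold.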

Additional observations from a re-analysis of the deposited data

Results flagged for a closer look

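Values far from the rest of their group were looked for in 18 groups of 4 MYC animals and 18 groups of 6 animals, where chance marks about 1 in 20 groups. Tgfb2 in myeloid cells of MYC animals was at 0.495 CPM in M4 and at 0 UMIs in M1, M2 and M3. Tgfb2 in T cells of MYC animals was at 1.12 CPM in M4 (7 UMIs) and at 0 UMIs in the others. In both cases M4 had the deepest sums, and counts of 0 in M1 allow up to 3.40 CPM in myeloid cells and 12.0 CPM in T cells, above the value of M4. In S2 the difference of T minus myeloid cells on the log2(CPM + 1) scale was 2.56 for Tgfb2 and 2.04 for Tgfb3, above the other 5 animals. These rest on 3 and 2 UMIs in 147 T cells. For Tgfbr1 the difference of tumour minus T cells was 2.70 in M1, where 45 T cells held 0 UMIs.

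The tumour over myeloid difference itself differed between subgroups for 2 genes. The term was 4.57 for Tgfb1 and 4.35 for Tgfbr2 (log2, MYC minus SHH; edgeR adjusted p = 0.0177 and 0.0259). In M4, tumour cells with collagen transcripts were higher in both genes than those with epithelial transcripts, and the share of such cells in the subgroups was not tested as a source of the terms.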

How the results depend on the processing

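No value changed sign past its threshold. Of the alternative values of the 6 genes in the comparisons that tested them, 413 kept direction and side of the threshold, 35 lost and 14 gained a call, and 7 not called changed sign. Counts of genes called moved over 1.5 times as follows. MYC over SHH in tumour cells (621) gave 1619 by DESeq2, 310 with runs as a covariate and 8 to 1023 with an animal left out. In myeloid cells (3) it gave 505 by DESeq2, 25 without the filter, 7 with looser gates, 0 with libraries as units, 10 without cells carrying tumour transcripts, 0 with runs as a covariate and 0 to 6 with an animal left out. In T cells (4) it gave 33 by DESeq2, 22 without the filter, 0 with looser gates, 1 without the top 8% of barcodes, 0 without cells carrying tumour transcripts, 9 with runs as a covariate and 0 to 12 with an animal left out. Tumour over myeloid cells (2357) gave 1153 to 2069 with an animal left out, T over myeloid cells (1954) 1201 to 2051, and tumour over T cells (1916) 794 to 2023, or 2905 without the filter. The subgroup term (318) gave 730 by DESeq2, 602 without the filter, and 0 to 486 with an animal left out, with 0 without either SHH animal. The cause of these moves was not tested. Fits with an animal left out also hold fewer samples, and their counts moved both up and down. RLE size factors moved the median of all genes in the subgroup term to 0.0167, against -0.107.

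Without the replicate block of animals, tumour over myeloid cells gave 1683 calls, T over myeloid cells 1170 and tumour over T cells 1235. That change ended the calls of Tgfb3 over both immune classes and of Tgfbr2 in T over myeloid cells, given above, and no other call of a member. The calls of Tgfbr1 and Tgfbi for tumour over myeloid and T over myeloid cells held in 15 of 15 alternatives each. Tgfbr2 for MYC over SHH in tumour cells held in 4 of 14 (log2 fold change 2.73 to 5.93).

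With 2 SHH animals, 1.49% of simulated 4-fold differences between subgroups were recovered in tumour cells and 10.4% in myeloid or T cells. At 16-fold, 56.1% were recovered in tumour cells. A missed threshold therefore does not show that levels were alike. Site and subgroup cannot be told apart. Levels of 0 in sums of 45 to 58 cells allow up to 18.8 CPM.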
